A study of Mus musculus with 12 samples.

Results

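The CXC chemokines that attract neutrophils, with the receptors they act on, were followed in cells sorted as monocytes from spleen and blood after liver resection. The 6 genes were chosen by symbol as 4 ligands, Cxcl1, Cxcl2, Cxcl3 and Cxcl5, and 2 receptors, Cxcr1 and Cxcr2. Each symbol had 1 entry in every count table, and the 6 stood among 52553 features in all. All 6 passed the filter on low counts, which 20135 features passed.

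RNA was sequenced from CD115-positive cells, taken with magnetic beads from the mononuclear fraction of male C57BL/6 mice. There were 4 groups of 3 libraries, each library from cells pooled over 5 mice: spleen and blood of intact animals, and spleen and blood taken 24 h after removal of 70% of the liver. All these animals had kept their spleen, and their age is not in the sources used here. The labels call the unoperated groups intact and name no sham operation for them, so resection and surgery cannot be told apart. Spleen cells were released with collagenase and depleted of red cells by lysis, steps that the methods do not give for blood, so tissue and preparation cannot be told apart. The libraries are pools, so p-values measure the spread between these pools.

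The ligands belong to the CXC chemokines that carry a glutamate-leucine-arginine motif before the first cysteines, and they call neutrophils out of the blood into injured tissue. They are classical early-response genes: monocytes and macrophages transcribe them within hours of a signal from interleukin 1, tumour necrosis factor or Toll-like receptors, through NF-kB. Cxcr2 is the main receptor of these ligands and is carried in quantity by neutrophils. Cxcr1 is a related receptor with a narrower choice of ligands.

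The ligand genes lie in 1 cluster on chromosome 5, in the order Cxcl5, Ppbp, Pf4, Cxcl3, Cxcl15, Cxcl1 and Cxcl2, and Cxcr2 and Cxcr1 are neighbours on chromosome 1 (RefSeq, GRCm38.p6). The RefSeq promoter table, which spans 250 bases before to 50 bases after each gene's start, held 5 of the 6 genes. Cxcl5 was not in it, so its promoter was not searched. The 100 bases before the start of the 3 ligands that rose in both tissues are shown because they share a pair of motifs. Capitals mark GGGAATTTCC, letters that NF-kB proteins are known to bind, and the TATA-like ATAAAAGG.
Cxcl1, plus strand, chr5:90891145-90891244: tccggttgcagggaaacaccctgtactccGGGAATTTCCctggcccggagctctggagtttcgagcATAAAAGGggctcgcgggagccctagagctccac
Cxcl2, plus strand, chr5:90903799-90903898: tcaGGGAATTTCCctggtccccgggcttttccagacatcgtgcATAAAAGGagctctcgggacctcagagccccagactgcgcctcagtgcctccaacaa
Cxcl3, plus strand, chr5:90786001-90786100: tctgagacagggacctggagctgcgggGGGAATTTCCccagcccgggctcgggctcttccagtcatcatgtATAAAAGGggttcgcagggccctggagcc

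The letters were taken from the Cxcl1 promoter after the promoters had been read, and both strands were searched (reverse complements GGAAATTCCC and CCTTTTAT). The motifs do not overlap each other. GGGAATTTCC stood in 29 of 32851 promoters, or 0.0883%. ATAAAAGG stood in 577 of them, or 1.76%. Both stood in 4 promoters, or 0.0122%, and these were Cxcl1, Cxcl2, Cxcl3 and the predicted gene Gm38531. Counted from the start, the first motif lay at -71 to -62 in Cxcl1, at -97 to -88 in Cxcl2 and at -73 to -64 in Cxcl3. The TATA-like letters lay at -34 to -27, at -57 to -50 and at -29 to -22, in the same order. Neither set of letters was in the windows of Cxcr1 and Cxcr2. A match of letters is a description of the window and not a site in use.

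**Figure D1:**
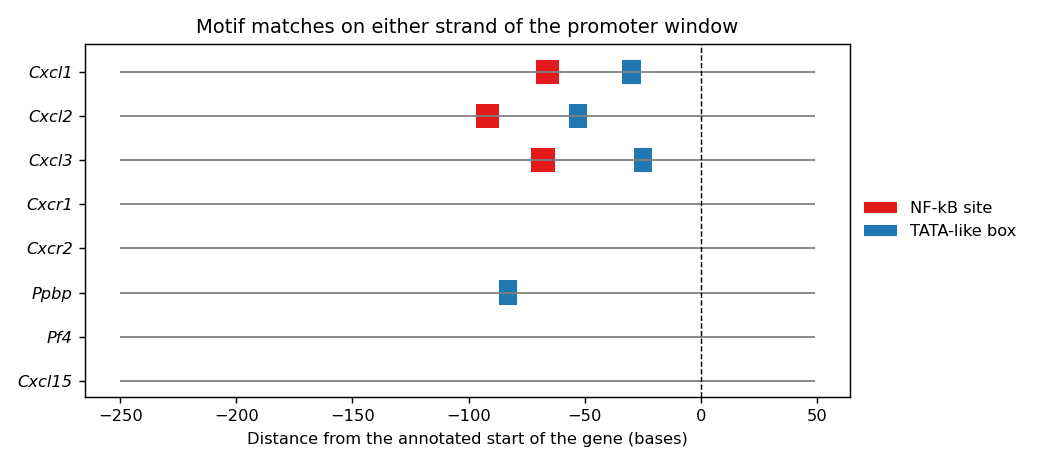
Position of the 2 motifs in the promoter windows of members and cluster neighbours, in bases from the annotated start. Cxcl5 had no window and is not shown. Cxcl1, Cxcl2 and Cxcl3 each hold both motifs on the plus strand, within 97 bases before the start, and the receptors hold neither.

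The transcripts of the ligands differ too. The letters ATTTATTTA, the core of the AU-rich elements known to make cytokine messages short-lived, were found on the sense strand, overlaps counted, 2 times in the Cxcl1 transcript and 4 times in that of Cxcl2. They were not found in the transcripts of Cxcl3, Cxcl5, Cxcr1 or Cxcr2. Among 8459 protein-coding transcripts of 953 to 1575 bases, the range of the ligands, 1.57% held them. Cxcl2 and Cxcl3 shared a run of 110 identical bases, whereas the longest run shared by Cxcl1 with either was 23 bases. The deposited values of Cxcl2 and Cxcl3 had decimals in 9 of 12 libraries, while their sum was whole in 12 of 12 within 0.002 counts. The split of reads between this pair is therefore uncertain, and the pair was also tested as 1 sum.

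The libraries held 36990033 to 46401368 counts. In the blood libraries 10 haemoglobin genes took 13.2 to 34.2% of the counts, and in the spleen libraries 0.0814 to 3.47%. Values are given in CPM, counts scaled to a common library size with the TMM factors of edgeR, and on this scale 3 counts equal 0.0626 to 0.102 CPM. A gene was called when edgeR's quasi-likelihood test gave a Benjamini-Hochberg adjusted p under 0.05 over all features tested and the log2 fold change was above 1 in size. Csf1r, the gene of the sort marker CD115, was read at 209 to 1192 CPM in all 12 libraries. It was 1.92-fold higher after resection in blood and 1.98-fold higher in spleen, with no overlap of libraries and an unadjusted p of 0.0138 and 0.0108 in edgeR, and it was not called (adjusted p = 0.0594 and 0.119). In bulk RNA fewer cells of a type and less RNA per cell cannot be told apart.

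In blood all 6 genes rose 24 h after resection, from 8.78-fold for Cxcr2 to 1445-fold for Cxcl3. The value for Cxcl3 rests on only 5 to 10 counts in the intact libraries. The share of all features called higher in this comparison was 7.8%. The libraries of the 2 groups did not overlap for any of the 6 genes, a separation that 38.4% of all features had. The median log2 fold change over the 6 was 5.82, against -0.10 over all features tested.

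Cxcl1, the ligand first known in mouse as KC, was read at 18.6, 18.0 and 9.59 CPM in intact blood. In resected blood it stood at 880.0, 2004 and 848 CPM in libraries 1 to 3. The lowest resected library was far above the highest intact one, and library 2 was the highest of its group. The log2 fold change was 6.34 (SE 0.55, edgeR adjusted p = 0.000428, n = 3 libraries a group), or 80.9-fold.

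Cxcl2, known as macrophage inflammatory protein 2, was the most abundant of the 6 per length in every library of blood. Its level was 78.9, 86.1 and 37.7 CPM in intact blood. After resection it was 1838, 4272 and 1846 CPM. As for Cxcl1, library 2 was the highest after resection, above 2 libraries that were close to each other. Cxcl2 thus rose by 5.29 on the log2 scale (SE 0.56, edgeR adjusted p = 0.000688).

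Cxcl3 was close to absent from intact blood, at 0.165, 0.257 and 0.109 CPM (6, 10 and 5 counts). It stood at 110.3, 331 and 330.3 CPM after resection. Here library 1, and not library 2, stood apart from the rest of its group, as the lowest. The log2 fold change of 10.50 (SE 1.34, edgeR adjusted p = 0.00135) was the highest of the 6. Its size depends on the few intact counts and on the split of reads between Cxcl2 and Cxcl3. Summed with Cxcl2, the pair gave 5.42 (SE 0.57, edgeR adjusted p = 0.000661).

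Cxcl5, a ligand better known from epithelial cells and platelets, had only 2, 3 and 3 counts in the intact blood libraries. There were 98, 172 and 507 counts after resection, or 2.99, 5.84 and 14.3 CPM. All resected libraries were well above the intact ones, and library 3 was the highest. Over the summed counts the ratio was 120.3 (95% exact interval for counting error only, 60.7 to 280). The fitted log2 fold change was 6.80 (SE 0.87, edgeR adjusted p = 0.00132), a value that depends on the prior count at such low counts.

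Cxcr2 was read at 9.80, 28.9 and 3.89 CPM in intact blood and at 51.6, 83.5 and 239 CPM after resection. The groups did not overlap, but library 3 of resected blood was 2.86 times as high as the next. The log2 fold change was 3.13 (SE 0.84, edgeR adjusted p = 0.0262). This call ended without library 3 of resected blood, where the value was 2.26 (edgeR adjusted p = 0.101), and without library 1 (2.93, adjusted p = 0.0802) or library 3 (2.68, adjusted p = 0.0533) of intact blood.

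Cxcr1 was read at 0.606, 1.46 and 0.262 CPM in intact blood and at 4.15, 9.10 and 8.22 CPM after resection. The lowest library after resection was above all intact ones. Cxcr1 rose by 3.20 on the log2 scale (SE 0.64, edgeR adjusted p = 0.00785).

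**Figure D2:**
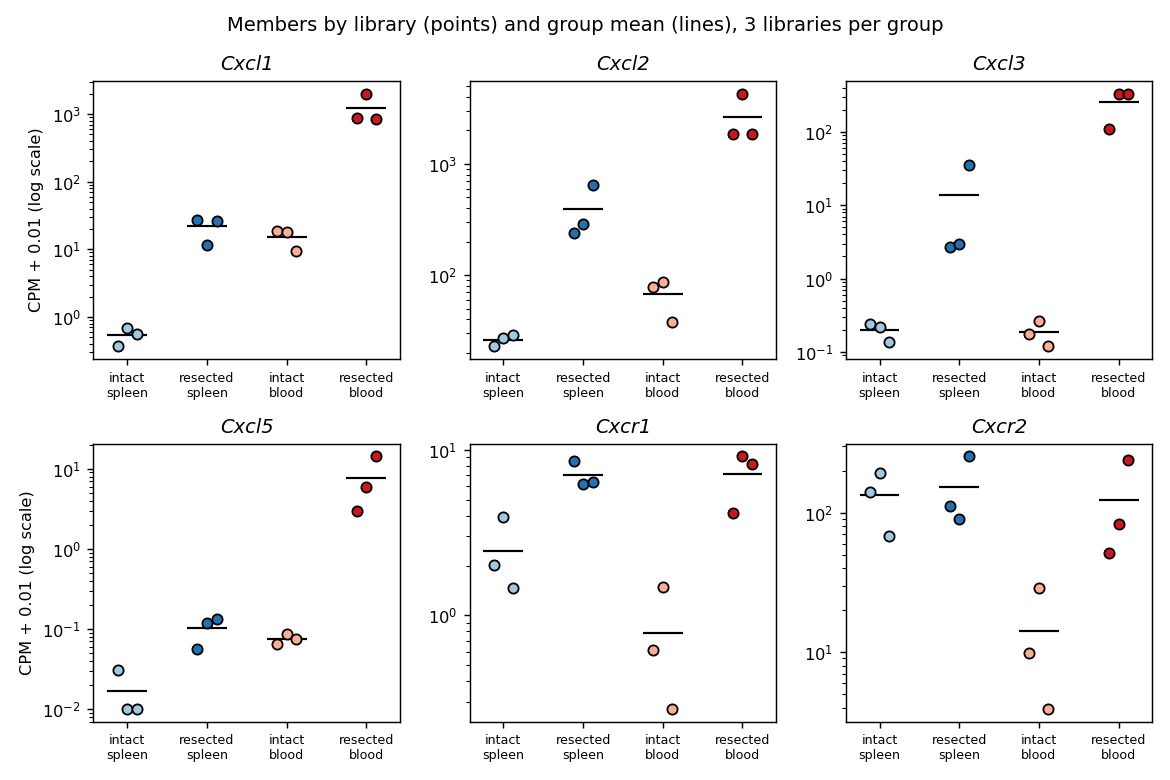
Level of each of the 6 genes in each of the 12 libraries, in CPM on a log axis after adding 0.01, with points for libraries and lines for group means. The 4 ligands are highest in resected blood in all 3 libraries, whereas Cxcr2 is lowest in intact blood and the other 3 groups overlap.

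In the spleen 3 of the 4 ligands, Cxcl1, Cxcl2 and Cxcl3, were called higher with resection, and Cxcl5 and the receptors were not called. The share of all features called higher here was 0.78%. The libraries of the 2 groups did not overlap for 5 genes, a separation that 35.1% of all features had, and 5 genes had an unadjusted p under 0.05 (20.8% of all features). None fell, with 0 genes lower at an unadjusted p under 0.05 in edgeR and 0 called lower by DESeq2, which gave no adjusted p for Cxcl3. In edgeR 0.596% of all features were called lower. The median log2 fold change over the 6 was 3.57, against 0.05 over all features.

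Cxcl1 rose from 0.358, 0.668 and 0.553 CPM in intact spleen to 27.3, 11.5 and 26.5 CPM. The resected spleen thus reached the level of intact blood, whose libraries overlap with it. The log2 fold change was 5.36 (SE 0.55, edgeR adjusted p = 0.0128). Cxcl1 ranked at 2 by p among all features of this comparison.

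Cxcl2 was already present in the intact spleen, at 22.9, 27.3 and 29.0 CPM, with the smallest relative spread of the 6 genes in that group. It reached 240.1, 286 and 652 CPM after resection, with library 3 as the highest. On the log2 scale it rose by 3.89 (SE 0.53, edgeR adjusted p = 0.0183).

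Intact spleen held 0.231, 0.209 and 0.128 CPM of Cxcl3 (11, 10 and 6 counts), and resected spleen 2.71, 2.95 and 35.6 CPM. Library 3 held most of the mean: its value was 12.1 times that of the next library. The log2 fold change was 6.16 (SE 1.16, edgeR adjusted p = 0.0366).

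The calls in the spleen rested on few libraries. Without library 1 or without library 2 of intact spleen, none of the 6 genes was called, and over all features 1 and 3 calls were left. The log2 fold changes of Cxcl1 were then 5.14 and 5.57 (edgeR adjusted p = 0.0792 and 0.0728), and those of Cxcl2 were 3.80 and 3.92 (0.125 and 0.13). Cxcl3 also lost its call without library 3 of intact spleen (5.94, edgeR adjusted p = 0.0846), and without library 1 or 2 of resected blood or of intact blood, whose libraries enter the shared spread (6.13 to 6.14, adjusted p = 0.0536 to 0.064). Without library 3 of resected spleen its value was 3.88 and the call was kept.

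Cxcl5 had 1, 0 and 0 counts in the intact spleen libraries and 2, 5 and 5 after resection, with a ratio of summed counts of 13.2 (95% exact interval for counting error only, 1.96 to 565). At this depth the level before resection was not measurable in 2 of 3 libraries, and the gene was not called (fitted log2 fold change 3.25, SE 0.95, edgeR adjusted p = 0.0981).

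Cxcr1 was read at 2.00, 3.90 and 1.45 CPM in intact spleen and at 8.55, 6.20 and 6.39 CPM in resected spleen. The groups were apart, yet the log2 fold change of 1.52 (SE 0.60) did not pass the test (edgeR adjusted p = 0.184).

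Cxcr2 was read at 141, 192 and 67.8 CPM before and at 111.4, 90.6 and 254 CPM after resection in the spleen. The groups overlapped, and the log2 fold change was 0.18 (SE 0.77, edgeR adjusted p = 0.931). Its sign turned without library 3 of intact spleen (-0.14) or of resected spleen (-0.41).

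**Figure D3:**
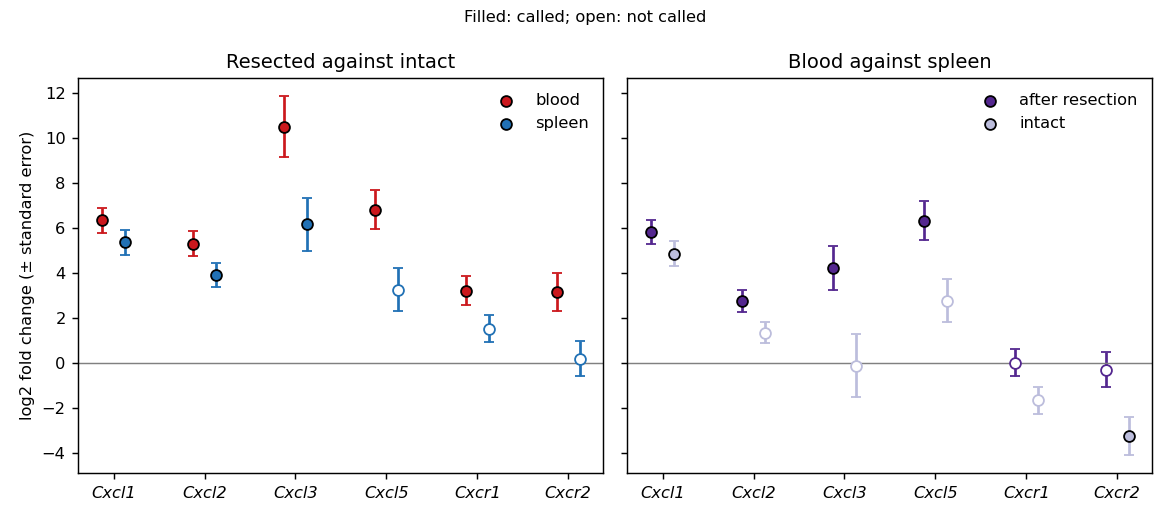
Log2 fold change of each gene with its standard error in the 4 comparisons, filled where the gene was called and open where it was not. In blood all 6 points are filled and lie between 3.13 and 10.50, while in spleen Cxcl5, Cxcr1 and Cxcr2 are open, at 3.25, 1.52 and 0.18.

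Whether resection moved these genes more in blood than in spleen was tested as an interaction, and none of the 6 was called, against 0.283% of all features. Cxcl3 (log2 difference 4.34, edgeR adjusted p = 0.235) and Cxcr2 (2.95, adjusted p = 0.23) had an unadjusted p under 0.05, which 17.3% of all features had. DESeq2 called 0 of the 5 genes for which it gave an adjusted p, and Cxcl3 was not among these 5. Without library 3 of resected spleen Cxcl3 passed (6.62, edgeR adjusted p = 0.0256). For the other genes the difference was 0.98 in Cxcl1, 1.40 in Cxcl2, 3.55 in Cxcl5 and 1.68 in Cxcr1.

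Between the tissues of intact animals, the sorted cells of blood and spleen differed in opposite directions for a ligand and a receptor. Blood held more Cxcl1, by 4.86 on the log2 scale (SE 0.54, edgeR adjusted p = 0.00161), and no other gene of the 6 was called higher. Cxcr2 was lower in blood, by -3.24 (SE 0.85, edgeR adjusted p = 0.041). Features called higher made up 3.86% and those called lower 3.49%. The blood and spleen libraries did not overlap for 4 genes, Cxcl1, Cxcl2, Cxcl5 and Cxcr2, as for 34.5% of all features. Cxcl5 had at most 3 counts in any of these libraries. The median over the 6 was 0.62, against -0.02 over all features. Markers of other cells differed as well. In intact blood 5 of 14 neutrophil markers were called lower and 0 higher. Called higher were 8 of 10 peritoneal macrophage and 5 of 8 mesothelial and fibroblastic markers, with 0 lower. So were 4 of 4 T-cell and 5 of 6 platelet markers. Called lower were 4 of 6 red pulp macrophage and 2 of 5 eosinophil markers. Monocyte markers had 2 of 10 higher and 1 lower, and endothelial ones 1 of 5 each way. The part of these cells in the values of the 6 genes was not tested.

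The call of Cxcl1 remained in every alternative run, while that of Cxcr2 was lost when any of 9 single libraries was left out (-3.46 to -2.69, edgeR adjusted p = 0.0563 to 0.136). These were the 3 of intact spleen, 1 and 2 of resected spleen and of resected blood, and 1 and 3 of intact blood. Cxcl2 was not called, at 1.35 (SE 0.48, edgeR adjusted p = 0.108). Cxcl3 was at the same low level in both tissues, with a log2 fold change of -0.11 (SE 1.39, edgeR adjusted p = 0.973) whose sign turned without library 1 or 2 of intact spleen or library 3 of intact blood. For Cxcl5, 8 counts in blood against 1 in spleen gave a ratio of 9.41 (95% exact interval for counting error only, 1.26 to 418), with an edgeR adjusted p of 0.104. Cxcr1 had -1.66 (SE 0.61, edgeR adjusted p = 0.12) and was called without library 2 of intact blood (-2.42, adjusted p = 0.0491).

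After resection the 4 ligands were all called higher in blood than in spleen, against 6.28% of all features, and no library of one tissue overlapped with the other (42.4% of all features). The log2 fold change was 5.84 (SE 0.54, edgeR adjusted p = 0.000361) for Cxcl1 and 2.76 (SE 0.50, adjusted p = 0.00584) for Cxcl2. It was 4.22 (SE 0.97, edgeR adjusted p = 0.0156) for Cxcl3 and 6.33 (SE 0.85, adjusted p = 0.00152) for Cxcl5. Over all 6 genes the median was 3.49, against -0.14 over all features. The receptors were not called. Cxcr1 differed by 0.02 (SE 0.58, edgeR adjusted p = 0.988) and Cxcr2 by -0.29 (SE 0.77, adjusted p = 0.838), and the libraries of both tissues overlapped. Their signs turned without 1 library, to -0.10 for Cxcr1 without library 2 of resected blood, and for Cxcr2 to 0.40, 0.18 and 0.02 without library 3 of resected spleen or library 1 or 2 of resected blood. This comparison shares its libraries with the resection comparisons. Called higher in blood were 9 of 10 peritoneal macrophage, 7 of 8 mesothelial and fibroblastic and 6 of 6 platelet markers. So were 3 of 4 T-cell and 3 of 10 monocyte markers. Called lower were 3 of 6 red pulp macrophage, 2 of 14 neutrophil, 2 of 10 monocyte, 1 of 5 eosinophil and 1 of 8 mesothelial and fibroblastic markers. Endothelial markers had 1 of 5 called each way. Over all 20135 features 2648 were called, 1264 of them higher. The part of these cells was not tested.

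The group means of Cxcl1, Cxcl2 and Cxcl5 fell in 1 order, and those of Cxcl3 and the receptors in others. For Cxcl1 the order was intact spleen (0.526 ± 0.157 CPM, SD, n = 3), intact blood (15.4 ± 5.03), resected spleen (21.8 ± 8.87) and resected blood (1244 ± 658), and the libraries of the middle pair overlapped. For Cxcl2 it was 26.4 ± 3.15, 67.6 ± 26.1, 393 ± 226 and 2652 ± 1403 CPM with no overlap between neighbours. For Cxcl5 both intact groups were at or under the floor of 3 counts in each library, as was library 1 of resected spleen. Resected spleen and intact blood overlapped, so the order below resected blood rests on few counts. Resected blood was highest (7.70 ± 5.87 CPM). For Cxcl3 the intact groups overlapped, at 0.189 ± 0.0546 CPM in spleen and 0.177 ± 0.0746 in blood, below resected spleen (13.8 ± 18.9) and resected blood (257 ± 127). For Cxcr1 the resected groups overlapped, at 7.05 ± 1.30 CPM in spleen and 7.16 ± 2.64 in blood. For Cxcr2 intact blood (14.2 ± 13.1 CPM) was lowest, and the other groups, from 125 ± 100.1 in resected blood to 152 ± 89.2 in resected spleen, overlapped.

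In these libraries the make-up of the ligand transcripts differed by tissue and by resection, which is given as a description. Levels between genes were compared per kilobase of transcript, with 1 GENCODE M21 transcript for each gene. The 4 ligands together made 21.3 to 26.9 CPM per kilobase in intact spleen and 248 to 650.5 in resected spleen. They made 44.2 to 96.8 CPM per kilobase in intact blood and 2691 to 6284 in resected blood. Cxcl2 was the most abundant ligand in all 12 libraries.

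Cxcl1 made 1.76 to 2.74% of the ligand transcripts in intact spleen and 4.27 to 11.6% in resected spleen, against 19.5 to 22.8% in intact blood and 30.8 to 34.3% in resected blood. No library of one group overlapped with another group. The mean difference with resection was 11.6 percentage points in blood and 4.54 in spleen, and the latter was 2.14 without library 1 of resected spleen, the library at 11.6%. In each case the exact two-sided permutation test gave p = 0.1, the smallest that 3 against 3 libraries allow. The test could therefore not fall under 0.05 and does not decide whether the shares changed. The share of Cxcl3 was 0.179 to 0.261% in intact blood and 4.03 to 11.3% after resection. These shares rest on the split of reads between Cxcl2 and Cxcl3.

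**Figure D4:**
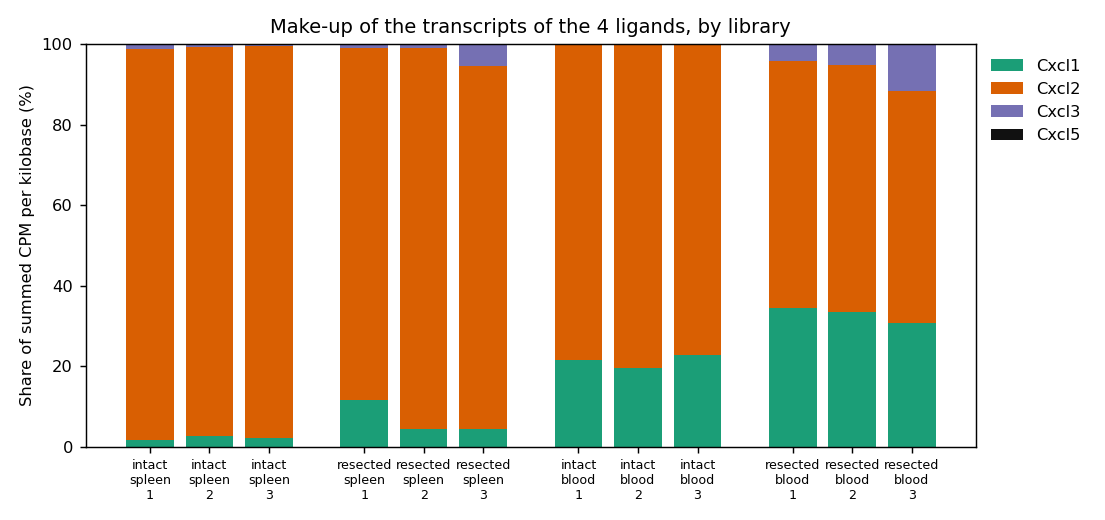
Share of Cxcl1, Cxcl2, Cxcl3 and Cxcl5 in the summed ligand level, in percent of CPM per kilobase, for each of the 12 libraries. Cxcl2 takes 96.5 to 97.4% in intact spleen and 57.6 to 61.6% in resected blood, where Cxcl1 takes 30.8 to 34.3%.

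Of the receptors, Cxcr2 was the more abundant per kilobase in every library. It was 17.3 to 26.1 times as high as Cxcr1 in intact spleen and 4.81 to 14.7 times as high in resected spleen. In blood the ratio was 5.48 to 7.29 before and 3.39 to 10.7 after resection, and these ranges overlapped.

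Markers of other cells moved with these genes. Over all features 7.8% were called higher with resection in blood and 0.78% in spleen. All 14 neutrophil markers, Ly6g, S100a8, S100a9 and Csf3r among them, were called higher with resection in blood, where their summed level was 166 to 594 CPM in intact and 4654, 5949 and 24794 CPM in resected libraries 1 to 3. Library 3 of resected blood, the highest for these markers, was also the highest for Cxcr2 and Cxcl5 and level with library 2 for Cxcl3, while library 2 was the highest for Cxcl1 and Cxcl2. In spleen the sum was 1377 to 2441 CPM before and 6582, 6081 and 17205 CPM after resection, and 2 of 14 markers were called, Ltf (log2 fold change 1.89) and Ly6g (2.07). With DESeq2 12 of 14 were called there, where it called 1564 of 20135 features against 277 by edgeR. Library 3 of resected spleen, the highest for the markers, was also the highest for Cxcl2, Cxcl3 and Cxcr2.

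Ly6g, which defines neutrophils in mouse, was read at 0.655 to 1.76 CPM in intact blood and at 17.0 to 37.3 CPM in resected blood, with 4.77 to 9.76 and 26.4 to 28.0 CPM in spleen. Cxcr2 stood at 4.92 to 9.26% of the summed neutrophil markers in intact spleen and at 1.48 to 1.69% in resected spleen. In blood it stood at 2.10 to 4.86% before and 0.963 to 1.40% after resection. The markers themselves moved unequally, in blood from 5.23-fold for Csf3r to 165-fold for Lcn2, so the ratio depends on which markers are summed. Csf3r alone was at 121 ± 79.9 CPM (SD, n = 3) in intact and 632 ± 409 CPM in resected blood (log2 fold change 2.39, edgeR adjusted p = 0.0198), and at 540.2 ± 68.6 and 557 ± 115 CPM in spleen (0.04, adjusted p = 0.981), against 3.13 and 0.18 for Cxcr2. The part of neutrophils in the receptor values was not tested.

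Markers of peritoneal macrophages also moved in blood, where 8 of 10 were called higher with resection, against 7.8% of all features. Their sum went from 356 to 1058 CPM to 4568 to 5786 CPM. Gata6, the factor that defines these cells, went from 2.85 to 5.86 CPM to 17.7 to 23.7 CPM. In spleen 0 of 10 were called with edgeR, and Gata6 stood at 0 to 0.163 CPM in all 6 libraries. At an unadjusted p under 0.05 there were 4 higher and 2 lower in spleen, against 20.8% of all features in either direction. DESeq2 called 2 there, and 1564 of all 20135 features. The spleen library with the lowest sum of these markers after resection, library 3 at 60.9 CPM, had 26.5 CPM of Cxcl1 and the most Cxcl2 and Cxcl3 of its group. The part of these cells in the ligand values of blood was not tested.

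Other marker lists moved with resection too. The summed red pulp macrophage markers went from 71.7 to 139.6 CPM in intact blood to 640.0 to 945 CPM in resected blood, and the T-cell markers from 486 to 1930 CPM to 89.2 to 183 CPM. Their part in the values of the 6 genes was not tested. In blood 4 of 6 red pulp macrophage, 2 of 10 monocyte and 1 of 8 mesothelial and fibroblastic markers were called higher, against 7.8% of all features. Called lower there were 2 of 10 monocyte and 4 of 4 T-cell markers. Over all 20135 features 2801 were called in blood, 1570 of them higher and the rest lower. In spleen 1 of 6 red pulp macrophage markers was called higher, against 0.78% of all features. For platelet, basophil, eosinophil, endothelial and B-cell markers none of 26 was called with resection in either tissue by edgeR. At an unadjusted p under 0.05 these 5 lists held 3 genes higher and 2 lower in blood, and 1 higher and 3 lower in spleen. DESeq2 called 3 in blood and 1 in spleen. Over all features 20.8% had such a p in spleen, and DESeq2 called 1564 there. No hepatocyte marker passed the filter, and their sum was at most 1.68 CPM.

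**Figure D5:**
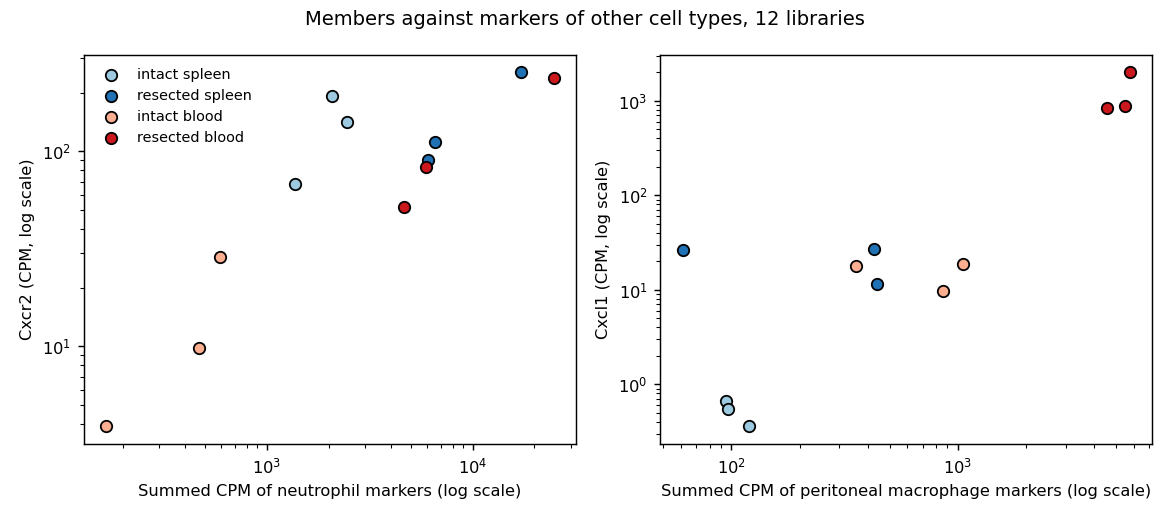
Level of Cxcr2 against the summed neutrophil markers (left) and of Cxcl1 against the summed peritoneal macrophage markers (right), in CPM on log axes, with 1 point for each of the 12 libraries coloured by group. Resected blood is highest on both axes of the right panel. Resected spleen holds 11.5 to 27.3 CPM of Cxcl1 at marker sums of 60.9 to 439 CPM, which are mostly Cd5l.

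Genes around the 6 were counted from lists of the same pathway. Of the inducers and regulators of these ligands 15 of 22 rose in blood and none fell (0 lower at an unadjusted p under 0.05 in edgeR and 0 by DESeq2). The share of all features called higher was 7.8% in blood and 0.78% in spleen. The median over the 22 in blood was 1.78 on the log2 scale. Il1a, an inducer of the ligands, rose by 8.80 (SE 0.89, edgeR adjusted p = 0.000623) on the log2 scale, and Tnf by 6.16 (SE 0.73, adjusted p = 0.00111). Nfkbia, the inhibitor that NF-kB itself induces, rose by 2.74 (SE 0.33, edgeR adjusted p = 0.00112) and Il6 by 5.56 (SE 0.75, adjusted p = 0.00161). In spleen 3 of 22 rose, Nfkbia (2.00, SE 0.32, edgeR adjusted p = 0.0253), Il1a (3.61, SE 0.71, adjusted p = 0.0396) and Tnf (3.25, SE 0.64, adjusted p = 0.0397). The spleen count ranged from 0 to 4 when single libraries were left out.

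The gene whose log2 CPM ran closest to Cxcl2 over the 12 libraries was Nfkbia (Pearson r = 0.99). Nfkbia was among the 29 genes whose promoter held GGGAATTTCC, without the TATA-like letters. None of the closest genes outside the 6 that are named below was among those 29. The levels of the other holders outside the 6 are not given here, and whether the motif goes with the level was not tested. For Cxcl3 the closest was Tnf (r = 0.99), followed by Atp6v0c and Rab1a. For Cxcl2 the next were Rbm7 and Ypel5. Cxcl1 had Gm17586, Epha2 and Padi4 (r = 0.98 each), and Cxcl5 had Scarb2, Pcdh7 and Acsl4 (0.98 each). For the receptors the closest genes were Mrgpra2a, Trem3 and Mrgpra2b for Cxcr1 (0.96 each) and Dhrs9, Gcnt2 and Csf3r, the receptor of granulocyte colony-stimulating factor, for Cxcr2 (0.97 each). Among the 6 genes themselves r was 0.97 for Cxcl2 with Cxcl3, 0.85 for Cxcr1 with Cxcr2 and 0.03 for Cxcl1 with Cxcr2. These correlations describe 12 libraries that fall into 4 groups and share their depth scaling.

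Of the other CXC ligands, 8 of 11 were tested. With resection in blood 7.8% of all features were called higher. With resection in blood 4 rose, Cxcl16 (2.78, SE 0.27, edgeR adjusted p = 0.000491), Cxcl10 (4.96, SE 0.81, adjusted p = 0.00349), Pf4 (3.71, SE 0.71, adjusted p = 0.00656) and Cxcl13 (4.09, SE 1.08, adjusted p = 0.0242), and the median over the 8 was 2.94. Ppbp, a neighbour of Cxcl5 in the cluster and itself a ligand of Cxcr2, stood at 47.7 ± 25.7 CPM (SD, n = 3) in intact and 93.2 ± 21.1 CPM in resected blood and was not called (0.97, SE 0.57, edgeR adjusted p = 0.252). In spleen 0 of 8 were called by edgeR, with 3 higher at an unadjusted p under 0.05 and 2 called by DESeq2. There 20.8% of all features had such a p in either direction, and DESeq2 called 1564 of 20135.

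Between the tissues, 4 of 8 were called higher in intact blood and 1 lower, against 3.86 and 3.49% of all features. The platelet chemokines Ppbp (4.27, SE 0.65, edgeR adjusted p = 0.00539) and Pf4 (4.62, SE 0.75, adjusted p = 0.00701) were higher in blood, as were Cxcl13 (5.71, SE 1.28, adjusted p = 0.0247) and Cxcl14 (5.57, SE 1.36, adjusted p = 0.0337), which had the larger values. Cxcl9 was lower (-4.12, SE 0.98, edgeR adjusted p = 0.0306). After resection 5 of 8 were called higher, against 6.28% of all features, and 1 lower. Platelet markers were called higher in blood than in spleen too, 5 of 6 in intact and 6 of 6 in resected animals, with sums of 52.5 to 183 and 153 to 199.9 CPM in blood. The part of platelets in these values was not tested.

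Among 7 tested receptors outside the pair, 1 rose in blood with resection, against 7.8% of all features. This was Ackr3, a scavenger of CXC chemokines (3.79, SE 0.42, edgeR adjusted p = 0.000788). None of the 7 was called in spleen (2 higher and 1 lower at an unadjusted p under 0.05, and 1 called by DESeq2). There 20.8% of all features had such a p in either direction, and DESeq2 called 1564 of 20135. In resected animals Cxcr4 (-1.80, SE 0.29, edgeR adjusted p = 0.00339) and Cxcr5 (-2.35, SE 0.57, adjusted p = 0.0198) were lower in blood than in spleen.

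Of 17 genes that carry the signal behind Cxcr2, 3 rose in blood, among them the adaptor Arrb2 (1.34, SE 0.33, edgeR adjusted p = 0.0184) and the kinase Fgr (1.53, SE 0.44, adjusted p = 0.0338). In that comparison 7.8% of all features were called higher. The median over the 17 was 0.44, and the count of the 17 called ranged from 0 to 4 when single libraries were left out. In spleen 0 of 17 were called by edgeR and 0 by DESeq2. At an unadjusted p under 0.05 there was 1 higher, against 20.8% of all features in either direction.

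Of 8 genes of the other neutrophil attractants, formyl peptides, complement C5a, leukotriene B4 and platelet-activating factor, 7 rose in blood. The median was 2.74, and 7.8% of all features were called higher there. The formyl peptide receptors Fpr1 (5.58, SE 0.89, edgeR adjusted p = 0.00322) and Fpr2 (4.70, SE 0.81, adjusted p = 0.00417) had the highest values, followed by the C5a receptor C5ar1 (3.89, SE 0.54, adjusted p = 0.00178). In spleen 0 of 8 were called by edgeR, although 7 were higher at an unadjusted p under 0.05 and 7 were called by DESeq2. There 20.8% of all features had such a p in either direction, and DESeq2 called 1564 of 20135 against 277 by edgeR.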

How the data were processed

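For each library the authors deposited estimated counts, unscaled for library size and gene length. The labels name STAR and GRCm39. The counting tool, its annotation and any test are not given in the sources used here. The labels give a DNBSEQ strand-specific mRNA library, whereas the methods name another sequencer. Tables held 67088 entries. Unassigned transcripts (2558 entries, 1.75 to 4.33% of a library) were left out, and 25340 of 40274 accessions were matched to symbols (RefSeq, GRCm38.p6). Counts were summed per gene and rounded.

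Groups were compared with the quasi-likelihood test of edgeR 4.0.16 (R 4.3.3), with TMM factors, filterByExpr, 1 coefficient per group and 12 libraries, and Benjamini-Hochberg adjustment over 20135 features. The standard error is the log2 fold change divided by the root of F. Correlations used log2 CPM with a prior count of 2. DESeq2 1.42.0, other scalings and filters, and leaving out each library were alternatives. The test was checked on simulated data. Pathway and marker lists are textbook lists. The members and lists were chosen with earlier results of these data known. Named genes were the 6 members, at most the 4 called genes of each list with the smallest p, discussed markers and, for each member, the 3 genes most like it with at least 1 CPM. A called gene of a pathway list is not reported here. Ppbp, Cxcl14 and the cluster neighbours were named after their values were seen.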

Additional observations from a re-analysis of the deposited data

How the results depend on the processing

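Over the 6 genes and 5 comparisons, 575 of 621 recomputed values kept their direction and their side of the threshold, 33 lost the call, 3 gained it and 10 changed sign. In blood 5 or 6 genes were called with resection under every alternative, and the alternatives moved over all features the 2801 calls to 1590 with only the 2 groups, to 4242 with no limit on the fold change, and to 1627 to 2814 with a library left out.

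In spleen the 277 calls over all features became 101 with no filter on low counts, 1564 with DESeq2 and 1 to 1025 with a library left out, and the members called were 0 to 3. Cxcl3 lost its call there with no filter (6.13, adjusted p = 0.0529) and with only the 2 groups (6.18, 0.0628), as did Cxcr2 in blood with only the 2 groups (3.13, 0.0792). Between tissues in intact animals the 2 members called became 1 with no filter, with entries as deposited and with only the 2 groups, and 1 to 3 with a library left out. The 1480 calls over all features became 796 with only the 2 groups, 2568 with DESeq2 and 531 to 1494 with a library left out. DESeq2 called Cxcl2 there (1.44, 0.0203). Between tissues after resection the 2648 calls ranged from 1450 to 3625 with a library left out, and Cxcl3 lost its call with only the 2 groups (4.27, 0.0572). For the interaction, the 57 calls became 22 with no filter, 1163 with DESeq2 and 5 to 93 with a library left out, and the members called were 0 to 1. DESeq2 gave no adjusted p for Cxcl3. With single libraries left out the sign changed for Cxcr2 in spleen (-0.41 to 0.54), Cxcl3 between intact tissues (-0.43 to 0.26), and Cxcr2 (-1.06 to 0.40) and Cxcr1 (-0.10 to 0.40) between resected tissues. The sum of Cxcl2 and Cxcl3, added after the data were seen, kept the calls of Cxcl2. Leaving out haemoglobin genes moved the median over all features by 0.12 in both comparisons between tissues.

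Of the same-numbered pairs, 2 of 18 correlated over 0.1, and 9 of 18 correlated best with their own number. Resected spleen with resected blood gave 0.042, 0.131 and 0.189 for numbers 1 to 3, and each correlated best with its own number. Intact spleen with intact blood gave 0.0002, 0.051 and 0.035, and only numbers 2 and 3 correlated best with their own. Whether spleen and blood pools of the same number came from the same mice was not tested. With the number as a replicate block, calls over all features were 150 in spleen and 1 for the interaction, the members called between intact tissues were 1, and Cxcr1 between resected tissues was at -0.044. Cxcl3 in spleen (5.50, adjusted p = 0.0565) and Cxcr2 in blood (3.11, 0.0573) were not called.

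At a common dispersion of 0.312 and 3 pools a group the spread between libraries, more than depth, limited the precision for most values. Depth also limited Cxcl5 outside resected blood, with 0 to 5 counts a library, and Cxcl3 in the intact groups, with 5 to 11.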
